A study of Mus musculus with 8 samples.

Results

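The genes described here are 9 chemokine receptor genes, Ccr1, Ccr2, Ccr7, Ccr9, Ccr10, Ccrl2, Cx3cr1, Cxcr2 and Cxcr4. They were taken by symbol from a list of names, which was drawn up with earlier results of these data known. All 9 were found in both deposited count tables, among 47643 genes of the macrophage table and 52458 of the plasma cell table. The study sorted bone marrow cells of wild-type B6 mice for bulk RNA sequencing to compare macrophages that touch a transplanted myeloma with macrophages that do not. Naive macrophages (2 libraries) came from mice that had received no tumour. The other 4 macrophage libraries held tumour-associated macrophages (TAM) of mice whose tibia had been injected with GFP-labelled Vk*MYC myeloma cells. GFP- cells formed the group not in contact with myeloma (TAM-NIC, 2 libraries), and GFP+ cells formed the group in contact (TAM-IC, 2 libraries). A separate table held 2 plasma cell libraries.

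All macrophages were sorted as F4/80 high, CD11b low cells, and no treatment was given. The contact group is thus defined by GFP signal in the macrophage gate, and the tumour, from a mouse model in which MYC is switched on in germinal centre B cells, is transplanted. The labels number the tumour-bearing mice 1 and 2 and give no age. The design names Vk*MYC myeloma cells and polyclonal plasma cells of naive mice, but the labels of the plasma cell libraries do not say which library holds which.

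Chemokine receptors are membrane proteins that couple to inhibitory G proteins and steer cells along gradients of small secreted chemokines. In marrow, Cxcr4 holds leukocytes near stromal cells that make Cxcl12, Cxcr2 drives the release of neutrophils, and Ccr2 drives the release of monocytes. Cx3cr1 marks monocytes and many macrophages, Ccr7 leads dendritic cells and lymphocytes to lymph nodes, Ccr9 and Ccr10 guide lymphocytes to gut, thymus, skin and mucosa, and Ccrl2 is an atypical receptor that binds chemerin without signalling for migration.

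The macrophage libraries held 28887725 to 46873056 counts and the plasma cell libraries 38343783 and 81792139, so a count of 0 in a macrophage library allows a level of 0.064 to 0.104 CPM, the count scaled to a library total of 1000000. None of 19 resident macrophage genes was at 0 in any macrophage library. Their summed level was 45500 and 21500 CPM in naive macrophages, 33100 and 23100 in TAM-NIC and 8170 and 6980 in TAM-IC. Genes of neutrophils were abundant in the same libraries, with 13 markers summing to 9880 to 87300 CPM and none at 0. The library TAM-NIC 2 stood apart, with 9.13% of its counts in immunoglobulin genes against 0.166% to 0.632% in the other 5 macrophage libraries. The library TAM-IC 2 had 0 counts of Xist and 3725 of Ddx3y, whereas TAM-NIC 2 had 1253 and 8. These libraries, both labelled mouse 2, therefore did not come from 1 animal. The other 5 macrophage libraries had 777 to 2521 counts of Xist and 0 to 11 of Ddx3y. The sex of the animals thus differed within TAM-IC, and its part in the differences of TAM-IC was not tested. In bulk samples of this kind, fewer cells of a type and less RNA per cell cannot be told apart. In the fits over the 6 macrophage libraries, p-values set a group difference against the spread between libraries of 1 group. That spread is estimated from all 3 macrophage groups together, with 2 libraries each.

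5 of the 9 genes lie on chromosome 9 (GRCm38, GENCODE M21). Ccrl2 spans chr9:111054486-111057519 on the minus strand, Cx3cr1 spans chr9:119901616-120069879 on the minus strand and Ccr9 spans chr9:123678439-123784330 on the plus strand. Ccr1 (chr9:123962124-123968692, minus) and Ccr2 (chr9:124101950-124113557, plus) follow in a cluster that also holds Ccr3. Cxcr2 (chr1:74153989-74161246, plus) and Cxcr4 (chr1:128588199-128592293, minus) share chromosome 1. Ccr7 (chr11:99144196-99155077, minus) and Ccr10 (chr11:101172997-101175443, minus) share chromosome 11.

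Promoter sequences from RefSeq (GRCm38.p6) matched 7 of the 9 genes, in 9 windows of the 250 bases before a start. Ccr7 and Ccr10 had no entry. The windows were searched on both strands for the NF-kB consensus, for the AP-1 site TGANTCA and for the PU.1 core GAGGAAG. The first of the 3 Ccrl2 windows held the only match among the 9 windows, to the NF-kB consensus, 56 to 47 bases before the start. Among 27025 promoters of the same length, 3.75% held a match to the NF-kB consensus, 6.87% to AP-1 and 10.4% to the PU.1 core. The Ccrl2 and Cxcr2 windows are printed because these genes had the largest positive and the largest negative difference from naive macrophages among the 9 genes. Capitals mark the match, which is a string of letters and not a measured binding site.
Ccrl2, chr9:111057519-111057768, minus strand: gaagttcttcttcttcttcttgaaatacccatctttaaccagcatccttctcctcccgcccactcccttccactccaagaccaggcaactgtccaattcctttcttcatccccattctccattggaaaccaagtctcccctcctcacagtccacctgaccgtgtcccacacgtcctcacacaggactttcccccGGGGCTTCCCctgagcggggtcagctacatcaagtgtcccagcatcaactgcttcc
Cxcr2, chr1:74153744-74153993, plus strand: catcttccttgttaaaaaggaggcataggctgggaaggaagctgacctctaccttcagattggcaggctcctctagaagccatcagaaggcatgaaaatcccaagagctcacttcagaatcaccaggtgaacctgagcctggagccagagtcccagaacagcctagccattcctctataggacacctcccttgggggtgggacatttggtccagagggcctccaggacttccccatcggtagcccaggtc
The Ccrl2 match reads GGGGCTTCCC, and the Cxcr2 window held none of the 3 motifs.

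**Figure D1:**
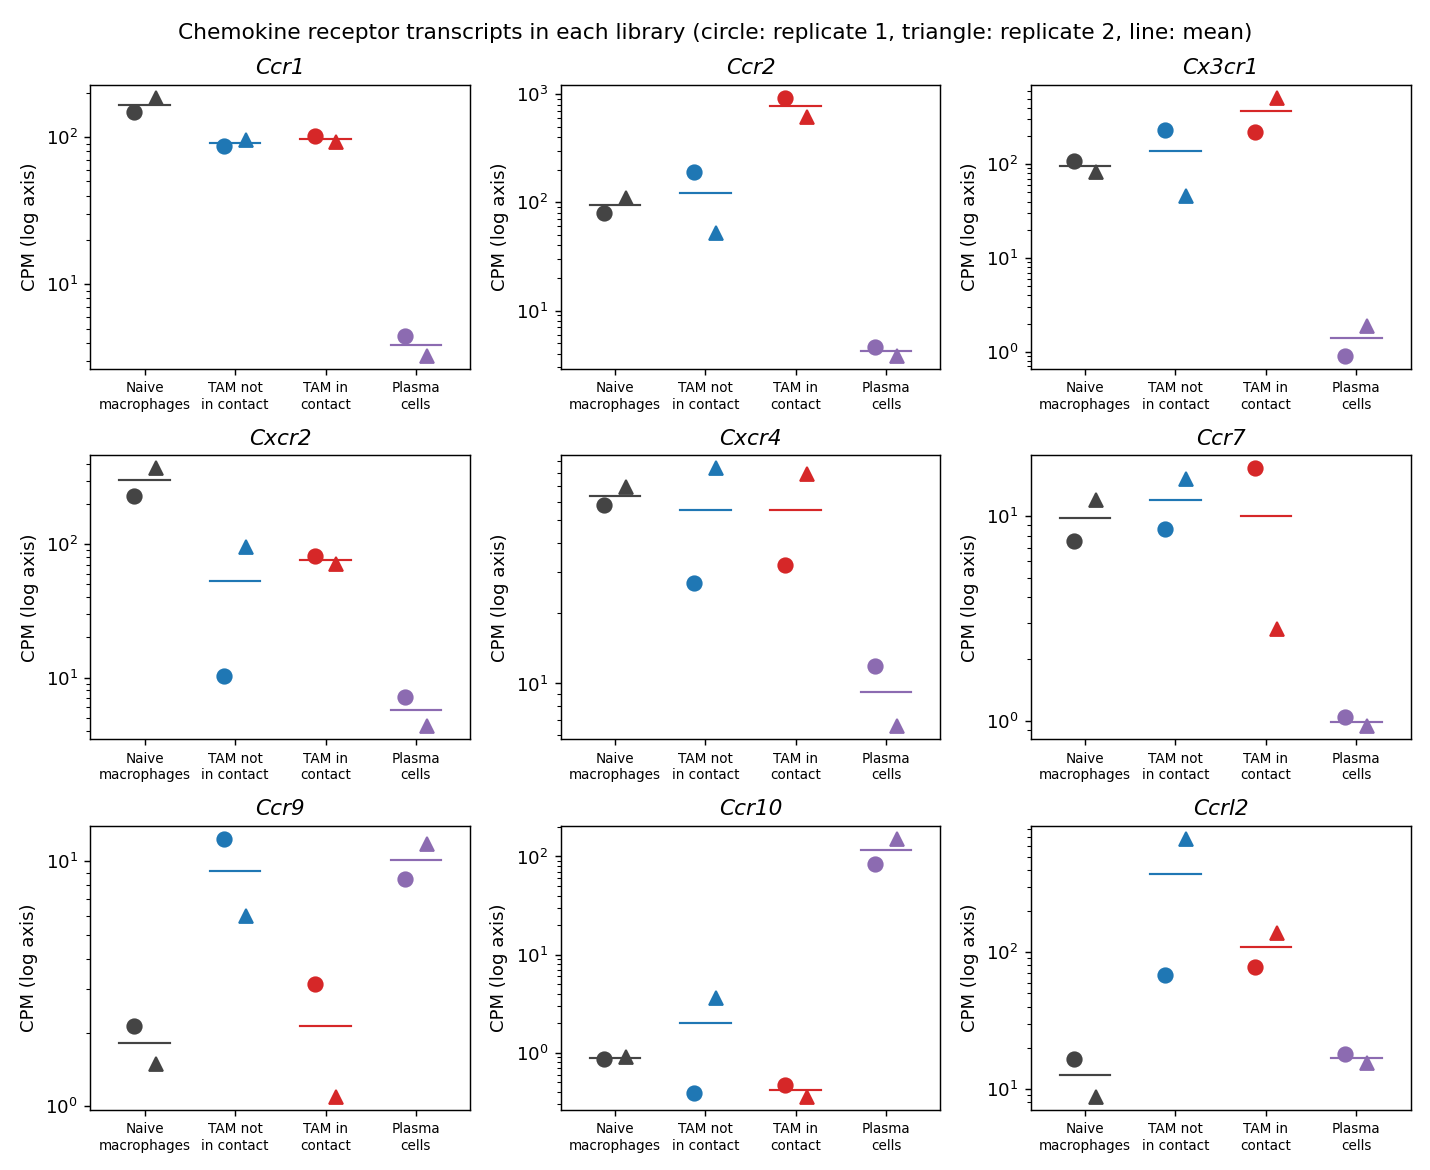
Level of each receptor in every library, in CPM on a log axis, with circles for replicate 1, triangles for replicate 2 and a line at the mean of each group. Ccr2 was at 618.3 and 925.4 CPM in TAM-IC, above the other 6 libraries, and Ccr10 was at 84.05 and 151.3 CPM in the plasma cell libraries and at most 3.607 CPM in macrophages.

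The contrast of TAM-IC with TAM-NIC asked how contact with the tumour goes with macrophage transcripts, and the contrasts with naive macrophages asked the same of the tumour-bearing marrow. Ccr2 was the receptor with the largest difference between contact and non-contact TAM, and Ccrl2 and Cxcr2 differed most from naive macrophages, upward and downward. All 9 genes passed the filter on low counts, and edgeR's quasi-likelihood test called none in any of the 3 comparisons, with the Benjamini-Hochberg adjusted p required to be below 0.05. Over all 15522 tested genes, edgeR called 0% for TAM-IC over TAM-NIC, 0.219% for TAM-IC over naive and 0% for TAM-NIC over naive. Without adjustment, edgeR gave a p under 0.05 for 2, 4 and 4 of the 9 genes, where it gave one for 17.1%, 14.6% and 15.2% of all tested genes.

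DESeq2, run as an alternative, called Ccr2 and Ccr9 between the TAM groups, where it called 10.4% of all genes it tested. It called Ccr2 and Ccrl2 for TAM-IC over naive (7.99% of all genes) and Ccr9, Ccrl2 and Cxcr2 for TAM-NIC over naive (8.31% of all genes). Limma-voom called none of the 9 genes. The comparisons share their groups of 2 libraries and are given side by side, not as independent evidence.

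Counted by overlap of the libraries, 1 receptor was higher in both TAM-IC libraries than in both TAM-NIC libraries (Ccr2, against 24.4% of all tested genes) and 1 was lower in both (Ccr9, against 22.3%). Against naive macrophages, 3 were higher in TAM-IC (Ccr2, Ccrl2 and Cx3cr1, with 23% of all genes) and 3 were lower (Ccr1, Ccr10 and Cxcr2, with 36.7%). In TAM-NIC, 2 were higher than in naive macrophages (Ccr9 and Ccrl2, with 16.6%) and 2 were lower (Ccr1 and Cxcr2, with 28.9%). The median log2 fold change of the 9 genes was 0.06 for TAM-IC over TAM-NIC, 0.16 for TAM-IC over naive and 0.52 for TAM-NIC over naive, beside medians of -0.00, 0.00 and 0.06 over all tested genes. The receptors thus had no common direction in any comparison.

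**Figure D2:**
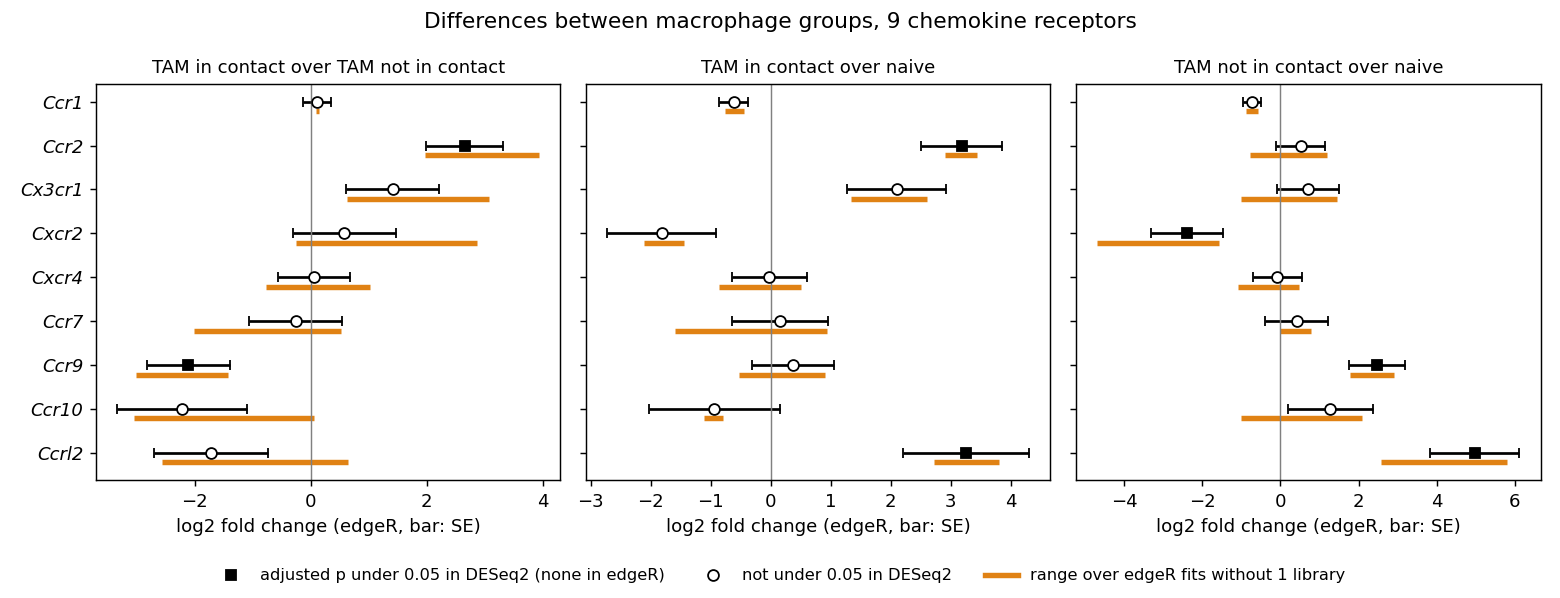
Log2 fold change of each receptor in the 3 comparisons, as fitted by edgeR with its SE, with filled squares where DESeq2 gave an adjusted p under 0.05 and orange bars for the range over the edgeR fits without 1 library. The orange bar of Ccr2 stays above 0 in both comparisons with TAM-IC, and those of Ccrl2 and Ccr10 between the TAM groups cross 0.

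Ccr2, the receptor of Ccl2, Ccl7 and Ccl12 on classical monocytes, was at 925.4 and 618.3 CPM in TAM-IC 1 and 2. It was at 191.2 and 52.37 CPM in TAM-NIC 1 and 2 and at 79.66 and 109.9 CPM in the naive libraries. Both contact libraries lay above all 4 others, and the naive libraries lay between the TAM-NIC libraries. The log2 fold change was 2.66 ± 0.66 (SE) over TAM-NIC (edgeR adjusted p = 0.185, DESeq2 adjusted p = 0.000892) and 3.18 ± 0.68 over naive (edgeR adjusted p = 0.156, DESeq2 adjusted p = 3.98e-05). Without 1 library at a time, DESeq2 called Ccr2 in 6 of 6 fits for each of these comparisons, and the edgeR difference between the TAM groups ran from 1.97 without TAM-NIC 2 to 3.94 without TAM-NIC 1, where edgeR called it (adjusted p = 0.0117). EdgeR also called the difference from naive without TAM-NIC 1 (adjusted p = 0.0208), without TAM-NIC 2 (adjusted p = 0.0234) and in the fit of only the 4 libraries compared (adjusted p = 0.0192).

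TAM-NIC did not differ from naive macrophages in Ccr2 by more than the spread of its libraries (0.52 ± 0.63, edgeR adjusted p = 0.757), and the sign turned to -0.77 without TAM-NIC 1, while without TAM-NIC 2 it was 1.19 and DESeq2 called it. The 12 classical monocyte genes, none at 0 in any library, summed to 23800 and 25000 CPM in TAM-IC, 8610 and 6730 in TAM-NIC and 14300 and 22000 in naive macrophages. Lyz2 and Chil3, which neutrophils also express, made up 13800 and 5190 CPM of the sum in naive 2. Without these genes, a choice made after seeing the values, the other 10 summed to 4440 and 3350 CPM in TAM-IC, 1830 and 1410 in TAM-NIC and 1750 and 3040 in naive macrophages. Both contact libraries were highest in Ccr2 and in either sum. Of the 12 genes, 10 had a positive log2 fold change over naive (median 1.47) and 11 over TAM-NIC (median 1.21). DESeq2 called 5 of them higher in each comparison. Of all genes it tested, it called 7.99% over naive and 10.4% over TAM-NIC, in either direction. The part of monocyte transcripts in the Ccr2 difference was not tested. Of its exonic words of 50 bases, 1.91% also occur in other genes.

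Cx3cr1, the fractalkine receptor of nonclassical monocytes and many macrophages, was at 223.1 and 509.8 CPM in TAM-IC, 233.1 and 45.48 CPM in TAM-NIC and 109.1 and 82.6 CPM in naive macrophages. TAM-NIC 2 was the lowest macrophage library and TAM-NIC 1 exceeded TAM-IC 1, so the TAM groups overlapped. TAM-IC differed by 1.41 ± 0.81 (log2) from TAM-NIC (edgeR adjusted p = 0.423, and 0.0481 without TAM-NIC 1) and by 2.10 ± 0.83 over naive (edgeR adjusted p = 0.33, DESeq2 adjusted p = 0.0767). DESeq2 called the difference from naive without either TAM-NIC library and in none of the other 4 fits without 1 library.

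For TAM-NIC over naive the Cx3cr1 value was 0.70 ± 0.80 (edgeR adjusted p = 0.741), and it turned to -1.01 without TAM-NIC 1. The 9 nonclassical monocyte genes, none at 0, summed to 3290 and 9330 CPM in TAM-IC, 2400 and 3450 in TAM-NIC and 1470 and 1140 in naive macrophages. Nr4a1, an immediate early gene, made up 2070 of the 3450 CPM in TAM-NIC 2 and 2470 of the 9330 CPM in TAM-IC 2. Without it, a choice made after seeing the values, the other 8 summed to 2880 and 6860 CPM in TAM-IC, 2200 and 1380 in TAM-NIC and 1420 and 1090 in naive macrophages. TAM-IC 2 was highest in Cx3cr1 and in this sum, and TAM-NIC 2 was the lowest TAM library in both. With Nr4a1 kept, TAM-NIC 2 exceeded TAM-NIC 1 and TAM-IC 1 in the sum, unlike in Cx3cr1. All 9 genes had a positive log2 fold change for TAM-IC over naive (median 1.94). DESeq2 called 8 of them, where it called 7.99% of all genes it tested, in either direction. The part of these transcripts in the Cx3cr1 values was not tested. Per kb of exonic length, the level of Ccr2 was 2.76 times that of Cx3cr1 in TAM-IC 1 and 0.808 times in TAM-IC 2, so the contact libraries differed in which of the pair was more abundant. In the other 4 macrophage libraries the ratio was 0.486 to 0.887. Per kb of the principal transcript it was 1.04 in naive 2, so the order of the pair in that library turned with the length used, and it was 3.25 and 0.951 in TAM-IC.

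Ccr1, a receptor of Ccl3, Ccl5, Ccl6 and Ccl9 on many myeloid cells, varied least of the 9. Its level was 146.7 and 184.4 CPM in naive macrophages, 87.07 and 94.79 CPM in TAM-NIC and 100.9 and 92.56 CPM in TAM-IC. All 4 TAM libraries lay below both naive libraries, and the TAM groups overlapped. On the log2 scale the difference was -0.73 ± 0.24 for TAM-NIC over naive (edgeR adjusted p = 0.259, DESeq2 adjusted p = 0.0777) and -0.62 ± 0.24 for TAM-IC over naive (edgeR adjusted p = 0.322, DESeq2 adjusted p = 0.143). On the genes that pass the edgeR filter, DESeq2 called the first of these (adjusted p = 0.0403). Between the TAM groups it was 0.11 ± 0.23 (edgeR adjusted p = 0.855).

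Cxcr2, the receptor of Cxcl1, Cxcl2 and related chemokines that releases neutrophils from marrow, was at 231.7 and 370.5 CPM in naive macrophages. It was at 10.3 and 94.86 CPM in TAM-NIC and at 81.95 and 71.11 CPM in TAM-IC. Every TAM library lay below both naive libraries, and TAM-NIC 1 was the lowest. Log2 fold changes were -2.40 ± 0.93 for TAM-NIC over naive (edgeR adjusted p = 0.309, DESeq2 adjusted p = 0.0497) and -1.82 ± 0.91 for TAM-IC over naive (edgeR adjusted p = 0.404, DESeq2 adjusted p = 0.183). Between the TAM groups the value was 0.58 ± 0.88 (edgeR adjusted p = 0.778), and it moved to -0.25 without TAM-NIC 1 and to 2.86 without TAM-NIC 2, where DESeq2 called it.

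The DESeq2 call of Cxcr2 for TAM-NIC over naive was kept without TAM-NIC 1 and without TAM-NIC 2 and was lost without each of the other 4 libraries and on the genes that pass the edgeR filter (DESeq2 adjusted p = 0.0566). EdgeR called it without TAM-NIC 2 (-4.69, adjusted p = 0.0376). For TAM-IC over naive, edgeR called Cxcr2 without TAM-NIC 1 (adjusted p = 0.0383), without TAM-NIC 2 (adjusted p = 0.0398) and with only the 4 libraries compared (adjusted p = 0.0348), and DESeq2 called it without either TAM-NIC library.

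The 13 neutrophil genes summed to 55900 and 87300 CPM in naive macrophages, 9880 and 20900 in TAM-NIC and 55500 and 32200 in TAM-IC. Naive 2 was highest and TAM-NIC 1 lowest in Cxcr2 as in this sum. TAM-IC 1 and naive 1 had nearly equal sums with Cxcr2 at 81.95 and 231.7 CPM. All 13 genes had a negative log2 fold change from naive in both TAM groups, with medians of -2.11 in TAM-NIC and -0.68 in TAM-IC. DESeq2 called 10 of them lower in TAM-NIC and none in TAM-IC. Of all genes it tested, it called 8.31% and 7.99% in that order, in either direction. EdgeR called none of the 13 in either TAM group. The part of neutrophil RNA in the Cxcr2 values was not tested. Mmp9, a neutrophil granule gene on that list, is named for its likeness to Cxcr2 (Pearson r of log2 CPM 0.996, n = 6 libraries). It was at 3080 and 5200 CPM in naive macrophages, 198 and 1360 in TAM-NIC and 1450 and 1340 in TAM-IC. That order is close to that of Cxcr2, as the choice requires. S100a8, Camp, Ngp, Elane, Mpo and Cebpe were higher in TAM-IC 1 than in naive 1, unlike Cxcr2. The other genes of the list were lower in TAM-IC 1 than in naive 1. Of the exonic 50-base words of Cxcr2, 6.68% also occur in other genes.

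**Figure D3:**
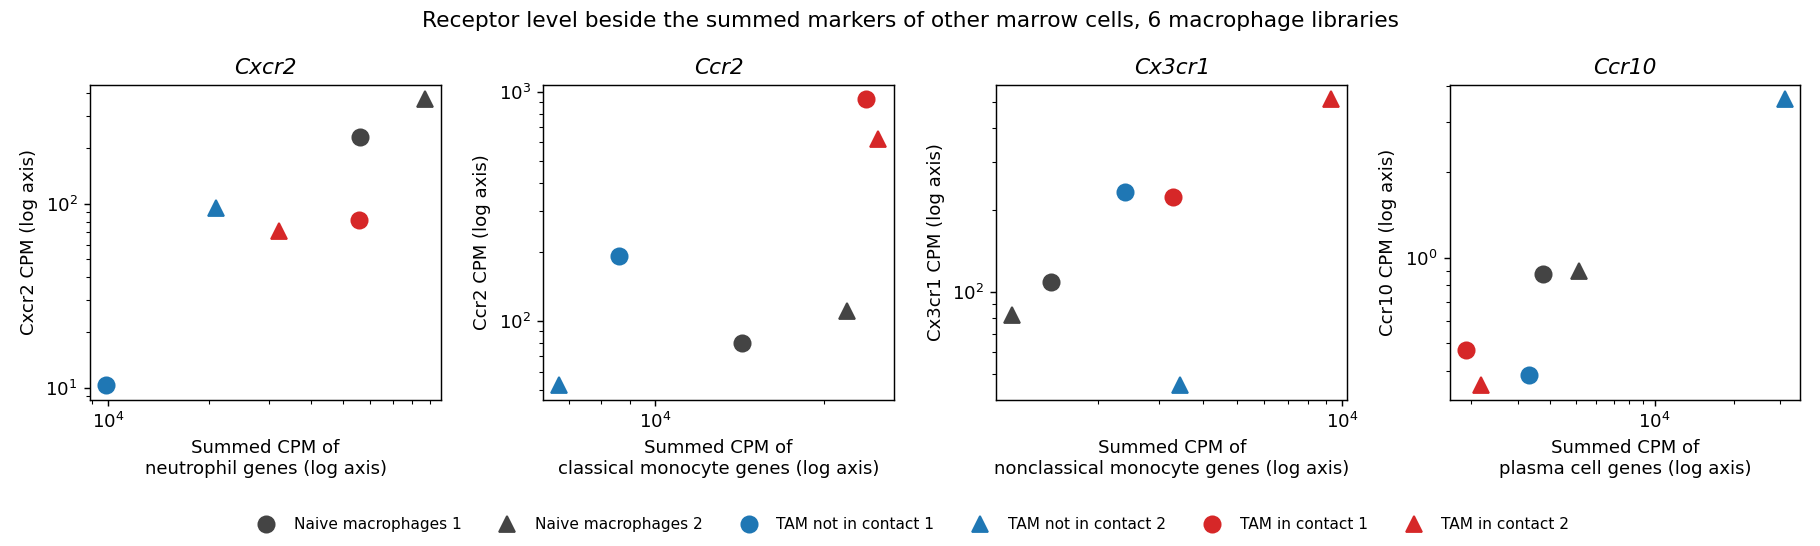
Level of 4 receptors (CPM, log axis) against the summed level of marker genes of neutrophils, classical monocytes, nonclassical monocytes and plasma cells (CPM, log axis) in the 6 macrophage libraries. Ccr10 and the plasma cell sum were both highest in TAM-NIC 2 (3.607 and 31300 CPM), and Cxcr2 was lowest where the neutrophil sum was lowest (10.3 and 9880 CPM in TAM-NIC 1).

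Cxcr4, the Cxcl12 receptor that retains leukocytes in marrow, followed no group. Its level was 58.11 and 69.75 CPM in naive macrophages, 26.86 and 83.68 CPM in TAM-NIC and 32.14 and 79.2 CPM in TAM-IC. Both TAM groups spanned the naive libraries, with the mouse 1 libraries low and the mouse 2 libraries high. Log2 fold changes were 0.06 ± 0.63 between the TAM groups, -0.03 ± 0.63 for TAM-IC over naive and -0.09 ± 0.63 for TAM-NIC over naive (edgeR adjusted p = 0.974, 0.989 and 0.968). The sign of each turned when 1 library was left out, within a range of -1.08 to 1.03 over the 3 comparisons.

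Ccr7, the Ccl19 and Ccl21 receptor of migrating dendritic cells, was low throughout, at 7.574 and 12.01 CPM in naive macrophages, 8.632 and 15.17 CPM in TAM-NIC and 17.08 and 2.801 CPM in TAM-IC. The contact group held both the highest and the lowest macrophage library. The value between the TAM groups was -0.26 ± 0.80 (edgeR adjusted p = 0.902), with 0.16 ± 0.80 for TAM-IC over naive (edgeR adjusted p = 0.942) and 0.41 ± 0.81 for TAM-NIC over naive (edgeR adjusted p = 0.862). Without TAM-IC 1 the first of these was -2.01, and DESeq2 called it in that fit. The 11 migratory dendritic cell genes summed to 349 and 246 CPM in naive macrophages, 1180 and 2560 in TAM-NIC and 730 and 503 in TAM-IC, of which Cd83 made up 2350 CPM in TAM-NIC 2. Up to 2 of the 11 genes were at 0 in a library, among them the defining Ccl17 in all naive and TAM-NIC libraries.

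Ccr9, the Ccl25 receptor that guides lymphocytes to gut and thymus and is also found on plasmacytoid dendritic cells, was at 12.36 and 5.959 CPM in TAM-NIC. It was at 2.133 and 1.489 CPM in naive macrophages, 3.169 and 1.092 CPM in TAM-IC and 8.509 and 11.74 CPM in the plasma cell libraries. Both TAM-NIC libraries lay above the other 4 macrophage libraries. The log2 fold change was -2.11 ± 0.71 for TAM-IC over TAM-NIC (edgeR adjusted p = 0.231, DESeq2 adjusted p = 0.0324), 2.48 ± 0.72 for TAM-NIC over naive (edgeR adjusted p = 0.242, DESeq2 adjusted p = 0.0126) and 0.37 ± 0.69 for TAM-IC over naive (edgeR adjusted p = 0.828). The sign of the last of these turned to -0.53 without TAM-IC 1.

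DESeq2 kept the Ccr9 call between the TAM groups in 2 of 6 fits without 1 library and lost it without TAM-NIC 1, TAM-IC 2, naive 1 or naive 2. It kept the call for TAM-NIC over naive in 3 of 6 fits and lost it without TAM-NIC 1, naive 1 or naive 2. The 11 plasmacytoid dendritic cell genes summed to 1520 and 1080 CPM in TAM-NIC, 1030 and 840 in naive macrophages and 1010 and 1150 in TAM-IC. Irf8 and Lair1, abundant in every macrophage library, carried most of it, and without them, a choice made after seeing the values, the other 9 summed to 328 and 438 CPM in TAM-NIC, 234 and 205 in naive macrophages and 214 and 159 in TAM-IC. Both TAM-NIC libraries were highest in this reduced sum, as in Ccr9. In TAM-NIC 2, however, Ly6d and Tcf4 made up 130 and 204 of the 438 CPM. The plasma cell libraries had Ly6d at 325 and 195 CPM and Tcf4 at 141 and 143 CPM. The place of TAM-NIC 2 in the reduced sum thus rests on these 2 genes, of which Tcf4 was higher there than in either plasma cell library. The part of plasma cell RNA in their values was not tested. Of the 11 genes, 10 had a positive log2 fold change for TAM-NIC over naive (median 1.22) and 9 a negative one for TAM-IC over TAM-NIC (median -1.12). Siglech, a marker of these cells, was at 12.3 and 19.3 CPM in TAM-NIC, 7.81 and 5.5 in naive macrophages and 3.17 and 2.54 in TAM-IC. Spib, another marker on the list, went the other way from Ccr9 against naive. It was at 47 and 44 CPM in naive macrophages, 7.88 and 7.63 in TAM-NIC and 8.27 and 5.96 in TAM-IC. The part of these transcripts in the Ccr9 values was not tested. Of the exonic 50-base words of Ccr9, 20.1% also occur in other genes, chiefly the overlapping opposite-strand gene AC165425.1. That gene had 0 counts in the macrophage libraries. The share is one of sequence and not of reads, so the count of Ccr9 is uncertain by an amount that was not tested.

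Ccr10, the receptor of Ccl27 and Ccl28 that plasma cells use to reach mucosa, was near the floor in macrophages. It was at 0.8747 and 0.9 CPM in naive macrophages, 0.472 and 0.356 CPM in TAM-IC and 0.3869 and 3.607 CPM in TAM-NIC. TAM-NIC 2 exceeded every other macrophage library, and the plasma cell libraries had 84.05 and 151.3 CPM, in a table deposited separately. The log2 fold change was -2.22 ± 1.12 between the TAM groups (edgeR adjusted p = 0.364), -0.94 ± 1.09 for TAM-IC over naive (edgeR adjusted p = 0.714) and 1.28 ± 1.08 for TAM-NIC over naive (edgeR adjusted p = 0.642). Without TAM-NIC 2 the first moved to 0.06 and the last to -1.02, while without TAM-NIC 1 edgeR called the first (-3.05, adjusted p = 0.0435).

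In TAM-NIC 2 the 12 plasma cell genes summed to 31300 CPM, against 1900 to 5160 CPM in the other 5 macrophage libraries and 516000 and 571000 CPM in the plasma cell libraries. Igkc alone made up 23700 CPM of the sum in TAM-NIC 2. Jchain, the joining chain of polymeric antibodies, was at 3500 CPM there and at most 450 CPM in the other macrophage libraries. The other genes of the list were also highest in TAM-NIC 2, except Mzb1 (11 CPM), Tnfrsf13b (122 CPM) and Ighm (735 CPM). Ighm was lower in TAM-NIC 2 than in any other macrophage library. The part of plasma cell RNA in the Ccr10 value of TAM-NIC 2 was not tested.

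Ccrl2, the atypical chemerin receptor whose promoter is printed above, was at 67.75 and 674.6 CPM in TAM-NIC. It was at 77.92 and 138.9 CPM in TAM-IC, 16.62 and 8.758 CPM in naive macrophages and 18.17 and 15.49 CPM in the plasma cell libraries. All 4 TAM libraries lay above both naive libraries, and TAM-NIC 2 exceeded every other library. The log2 fold change was 4.98 ± 1.14 for TAM-NIC over naive (edgeR adjusted p = 0.219, DESeq2 adjusted p = 5.77e-06) and 3.26 ± 1.05 for TAM-IC over naive (edgeR adjusted p = 0.272, DESeq2 adjusted p = 0.00742). Between the TAM groups it was -1.72 ± 0.99 (edgeR adjusted p = 0.422, and 0.0461 without TAM-NIC 1), and the sign turned to 0.65 without TAM-NIC 2.

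Without TAM-NIC 2 the Ccrl2 difference of TAM-NIC from naive was 2.57, and without TAM-NIC 1 it was 5.79, where edgeR called it (adjusted p = 0.0149). DESeq2 called it in 6 of 6 fits without 1 library. For TAM-IC over naive DESeq2 called Ccrl2 in 4 of 6 such fits and lost it without TAM-IC 2 or naive 2, and edgeR called it without TAM-NIC 1 (adjusted p = 0.0383), without TAM-NIC 2 (adjusted p = 0.0398) and with only the 4 libraries compared (adjusted p = 0.0331). Ccrl2 was at 18.17 and 15.49 CPM in the plasma cell libraries, whose table was made separately. Both levels lay below that of every TAM library. Immunoglobulin genes held 67.2% and 70.4% of the counts of the plasma cell libraries. The part of plasma cell RNA in the Ccrl2 value of TAM-NIC 2 was not tested. The gene most like Ccrl2 over the 6 macrophage libraries was Atf3, a stress-induced transcription factor gene, at 120 and 1330 CPM in TAM-NIC, 99.7 and 198 CPM in TAM-IC and 16.4 and 10.6 CPM in naive macrophages (Pearson r of log2 CPM 0.996, n = 6 libraries).

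Per kb of exonic length, the leading receptor was the same in both libraries of the naive and of the plasma cell group. It differed between the libraries of each TAM group. Cxcr2 led in naive macrophages with 36.7% and 45% of the summed level, ahead of Ccr1 with 25% and 24.1%. Ccr2 led TAM-IC 1 with 44.8% and Cx3cr1 led TAM-IC 2 with 31.5%, ahead of Ccr2 with 25.4%. The TAM-NIC libraries were unlike each other, with Cx3cr1 in the lead in TAM-NIC 1 (32.2%) and Ccrl2 in TAM-NIC 2 (65.1%). Ccr10 led both plasma cell libraries with 71.2% and 85.6%. The summed level of the 9 was 206.9 and 269.9 CPM per kb in naive macrophages, 160.9 and 398.7 in TAM-NIC and 305.9 and 359.6 in TAM-IC.

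**Figure D4:**
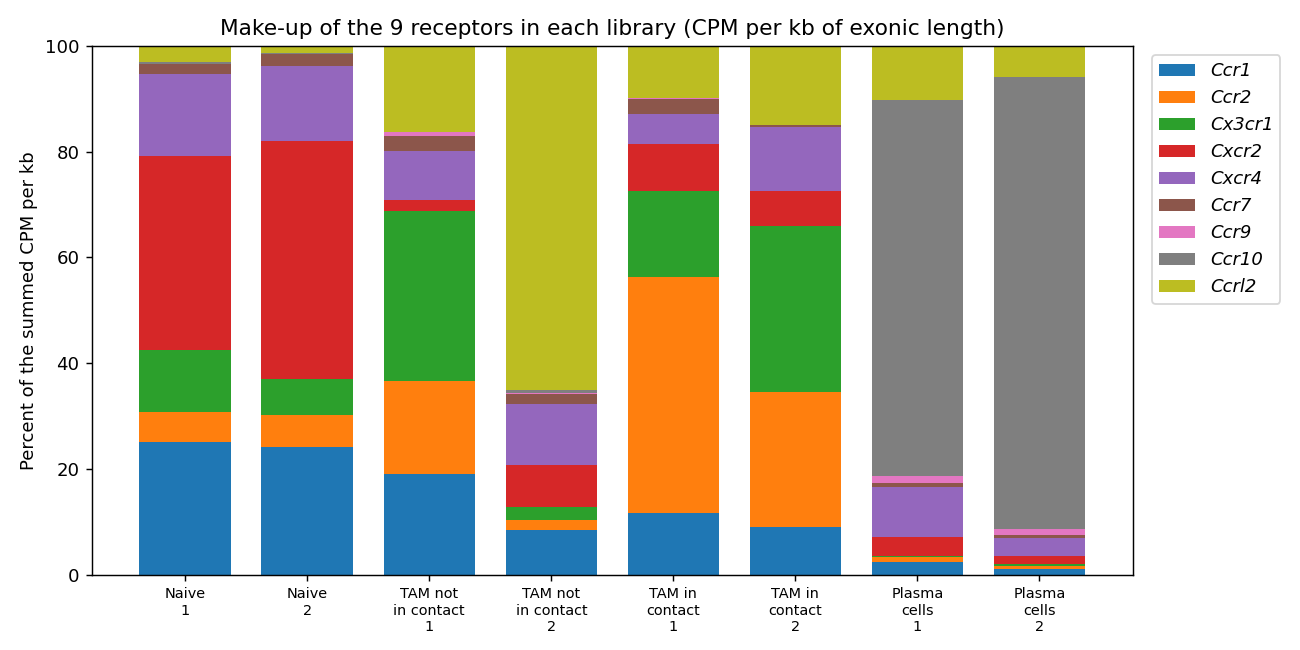
Share of each receptor in the summed level of the 9 (percent of CPM per kb of exonic length) in the 8 libraries. Cxcr2 fills 36.7% and 45% of the naive bars, Ccr2 with Cx3cr1 leads the TAM-IC bars, and Ccrl2 fills 65.1% of TAM-NIC 2 and at most 16.2% of the other TAM bars.

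Of 17 other chemokine receptor genes 15 were tested, and edgeR called none. DESeq2 called 2 lower for TAM-IC over TAM-NIC, 2 higher and 3 lower for TAM-IC over naive and 3 higher and 1 lower for TAM-NIC over naive. Of all genes it tested, it called 10.4%, 7.99% and 8.31% in that order. Without adjustment, edgeR gave a p under 0.05 for 4, 5 and 5 of the 15 genes (26.7%, 33.3% and 33.3%). Over all tested genes it gave one for 17.1%, 14.6% and 15.2%. Their median log2 fold changes were -0.56, -0.54 and 0.34 in that order of comparisons.

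Ccr3, the eotaxin receptor that lies between Ccr1 and Ccr2, went the other way from Ccr2. It was at 14.4 and 21.7 CPM in TAM-IC, 169 and 488 in TAM-NIC and 1080 and 453 in naive macrophages, a log2 fold change of -4.15 ± 0.72 over TAM-NIC (edgeR adjusted p = 0.133, DESeq2 adjusted p = 2.21e-08). The groups did not overlap between TAM-IC and either other group, as for Ccr2 but in the opposite direction.

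Ccr1l1, a close relative of Ccr1 beside it, was at 0.584 and 0.451 CPM in TAM-IC, 2.8 and 7.44 in TAM-NIC and 13.2 and 4.19 in naive macrophages. Gpr35, an orphan-like receptor for which the mucosal chemokine CXCL17 was proposed as a ligand, was at 182 and 247 CPM in TAM-IC, 131 and 53.6 in TAM-NIC and 20.7 and 19 in naive macrophages. Its log2 fold change over naive was 3.59 ± 0.51 in TAM-IC (edgeR adjusted p = 0.0784, DESeq2 adjusted p = 1.23e-09). All TAM libraries exceeded both naive libraries in Gpr35, and the TAM groups did not overlap.

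Cxcr5, the B cell follicle receptor, was at 8.11 and 10.7 CPM in naive macrophages and 1.02 to 2.09 CPM in the 4 TAM libraries. Xcr1, a marker of cross-presenting dendritic cells, was at 0.661 and 0.104 CPM in naive macrophages, 7.35 and 3.06 in TAM-NIC and 11.1 and 1.85 in TAM-IC. Among the receptors that share ligands with the 9, Ackr3, the scavenging Cxcl12 receptor, was at or under 1.93 CPM in all macrophage libraries and at 0 counts in TAM-NIC 1. Cmklr1, the signalling chemerin receptor, was at 0.759 to 4.3 CPM with overlapping groups.

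Of 23 ligand genes of the 9 receptors 18 were tested, and edgeR called none. DESeq2 called 2 higher and 5 lower for TAM-IC over TAM-NIC, 5 higher for TAM-IC over naive and 7 higher for TAM-NIC over naive. Of all genes it tested, it called 10.4%, 7.99% and 8.31% in that order. Without adjustment, edgeR gave a p under 0.05 for 8, 6 and 8 of the 18 (44.4%, 33.3% and 44.4%). Among all tested genes the shares were 17.1%, 14.6% and 15.2%. The median log2 fold changes were -1.76, 0.58 and 2.74.

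Ccl3, a ligand of Ccr1, was at 84.9 and 189 CPM in TAM-NIC, 67.4 and 253 in TAM-IC and 9.62 and 14.6 in naive macrophages, so every TAM library exceeded the naive libraries while Ccr1 itself was lower in every TAM library. Ccl4, an inflammatory chemokine on the ligand list, was at 149 and 413 CPM in TAM-NIC, 107 and 55.8 in TAM-IC and 8.32 and 5.3 in naive macrophages. The Ccl4 difference of TAM-NIC from naive was 5.49 ± 0.67 (edgeR adjusted p = 0.183, DESeq2 adjusted p = 1.98e-16). Ccl9, another ligand of Ccr1, was at 239 and 383 CPM in TAM-IC, 107 and 42.2 in TAM-NIC and 51 and 72.6 in naive macrophages.

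Ccl2, the best-known ligand of Ccr2, was at 5.87 and 9.8 CPM in TAM-IC, 6.12 and 26.2 in TAM-NIC and 2.03 and 2.22 in naive macrophages. Ccl7 was at 1.33 and 0.285 CPM in TAM-IC, 5.25 and 9.4 in TAM-NIC and 2.37 and 2.7 in naive macrophages. The contact group, highest in Ccr2, was thus the lowest in Ccl7, at -3.17 ± 0.83 from TAM-NIC (edgeR adjusted p = 0.194, DESeq2 adjusted p = 0.00151).

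Of the Cxcr2 ligands, Cxcl2 was at 824 CPM in TAM-NIC 2 and at 5.31 to 82.5 CPM in the other 5 macrophage libraries. Ppbp, a platelet chemokine, was at 10.2 and 42.5 CPM in TAM-NIC and at most 1.07 CPM in the other 4. Its value between the TAM groups was -6.67 ± 1.04 (edgeR adjusted p = 0.119, DESeq2 adjusted p = 6.55e-12). The 10 megakaryocyte and platelet genes, Ppbp among them, summed to 254 and 377 CPM in TAM-NIC against 62.3 to 113 CPM in the other 4 macrophage libraries. Clec1b made up 122 of the 254 CPM in TAM-NIC 1, and Itga2b made up 129 of the 377 CPM in TAM-NIC 2. The part of platelet RNA in the Ppbp values was not tested.

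Cxcl12, the Cxcr4 ligand of stromal cells, was at 48.4 CPM in TAM-NIC 2 and 0.237 to 3.67 CPM in the other 5. Cx3cl1, the ligand of Cx3cr1, was at 0.0692 to 2.32 CPM. Ccl25, the ligand of Ccr9, was at 2.51 to 7.1 CPM. Ccl28, a ligand of Ccr10, and Rarres2, which encodes chemerin, had 0 counts in every library, and Ccl19, a ligand of Ccr7, had counts in TAM-NIC 1 alone (0.0484 CPM, under the limit of a count of 0). Ccl19 has near-identical copies in the mouse genome, so its count is uncertain. Ccl27a, the other Ccr10 ligand gene on the list, added here after its values were seen, was detected at 0.533 and 0.831 CPM in naive macrophages and 0.451 CPM in TAM-NIC 2, and was at or under the limit of a count of 0 in the other 3 macrophage libraries.

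All 26 genes of receptor signalling were tested, and edgeR called none. DESeq2 called 2 higher and 1 lower for TAM-IC over TAM-NIC, 6 higher for TAM-IC over naive and 2 higher and 2 lower for TAM-NIC over naive. Of all genes it tested, it called 10.4%, 7.99% and 8.31% in that order. Without adjustment, edgeR gave a p under 0.05 for 8, 6 and 5 of the 26 (30.8%, 23.1% and 19.2%). The shares over all tested genes were 17.1%, 14.6% and 15.2%. The median log2 fold changes were 0.58, 0.30 and -0.28.

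Rgs1, which shortens signalling by inhibitory G proteins, was at 437 and 962 CPM in TAM-NIC, 215 and 119 in TAM-IC and 22.4 and 14.3 in naive macrophages. The groups did not overlap in any comparison, and the difference of TAM-NIC from naive was 5.38 ± 0.59 (edgeR adjusted p = 0.183, DESeq2 adjusted p = 5.16e-20). Grk5, a kinase that desensitises activated receptors, was at 15 and 44.5 CPM in TAM-IC, 5.42 and 9.5 in TAM-NIC and 3.69 and 3.53 in naive macrophages. Rgs2, which acts on G proteins of the Gq class, was at 581 and 1160 CPM in TAM-IC, 434 and 264 in TAM-NIC and 222 and 219 in naive macrophages, and both contact libraries exceeded the other 4.

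Genes most like each receptor were ranked by Pearson r of log2 CPM over the 6 macrophage libraries among 5293 genes, as a description. Since 6 points from 3 groups with shared libraries give many high values, the r is listed with no p. Rufy3 was most like Ccr9 (r = 0.998), followed by the C-type lectin gene Clec4n (r = 0.995), at 228 and 97.5 CPM in TAM-NIC, 59.4 and 17.9 in TAM-IC and 43.8 and 23.8 in naive macrophages. Il1rn, which encodes the interleukin 1 receptor antagonist, was most like Ccr7 (r = 0.972), at 304 and 42 CPM in TAM-IC, the highest and the lowest of its 6 levels.

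Arhgap11a was most like Ccr2 (r = 0.991) over a much narrower range, 64.2 to 115 CPM, and Tmco4 most like Cx3cr1 (r = 0.996), followed by the cystatin gene Cst3 (r = 0.993). Cst3 was at 889 and 1720 CPM in TAM-IC, 809 and 258 in TAM-NIC and 501 and 341 in naive macrophages. Ankrd46 (r = 0.997) and Mmp9 (r = 0.996) were most like Cxcr2, Vps16 (r = 0.989) most like Cxcr4 and Bag6 (r = 0.982) most like Ccr1. Syvn1, which encodes a ubiquitin ligase of the endoplasmic reticulum, was most like Ccr10 (r = 0.99), at 305 CPM in TAM-NIC 2 and 70.2 to 132 CPM in the other 5.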

How the data were processed

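The 8 bulk libraries (6 of macrophages, 2 of plasma cells) were made with a SMART-Seq v4 kit, which does not mark strand, per the labels' protocols. The authors deposited raw read counts per gene in 2 tables. Per the submitters' processing notes, which give no order or role, the tools were featureCounts, STAR and DESeq2 1.26, and GRCm38 (mm10) was the build. The annotation release and strand setting were not given in the sources used here. Of 47643 Ensembl IDs, 47224 matched GENCODE M21 (39106 with the same version). Members and gene lists were chosen with earlier results of these data known.

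CPM is the count scaled to a library total of 1000000. Genes were tested on the deposited counts with edgeR 4.0.16 (R 4.3.3), TMM factors, the filterByExpr filter (minimum count 10, total 15; 15522 genes), 1 quasi-likelihood fit over the 6 macrophage libraries with 3 residual degrees of freedom and a Benjamini-Hochberg threshold of 0.05. The script was tested on simulated data. SE is the log2 fold change over the square root of F. Plasma cells were not tested, because their labels do not separate myeloma from polyclonal cells and their table was made separately.

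Alternatives were DESeq2 1.42.0, limma-voom (limma 3.58.1), another quasi-dispersion estimate, RLE factors, no low-count filter, at least 50 counts in 2 libraries, only the 4 libraries compared, a replicate block and each library left out. DESeq2 without each library, and on the genes of the edgeR filter, were added after seeing the data. All 9 receptors are reported. Of the 3 lists, those with the smallest p, those called and preset ligands and neighbours were eligible to be named, with the summary in counts, and for each receptor the 3 genes of highest r. A leave-out fit with 1 library in an arm takes that library to vary like the other groups. 1 gene of the receptor list is not reported here.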

Additional observations from a re-analysis of the deposited data

How the results depend on the processing

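Of 27 receptor differences (9 genes, 3 comparisons), 14 kept their sign under each alternative run (21 a difference, and 20 for Ccr10, which the filter of 50 counts removes), and of 564 alternative values 39 turned sign and 80 newly passed the threshold. The cause of each change was not tested. Without 1 library at a time, in edgeR and DESeq2, the differences that turned sign between the TAM groups ran from -2.06 to 0.52 (Ccr7), -3.08 to 0.07 (Ccr10), -2.58 to 0.67 (Ccrl2), -0.27 to 2.87 (Cxcr2) and -0.82 to 1.05 (Cxcr4). For TAM-IC over naive they ran from -1.66 to 0.93 (Ccr7), -0.60 to 0.91 (Ccr9) and -0.92 to 0.51 (Cxcr4). For TAM-NIC over naive they ran from -0.77 to 1.19 (Ccr2), -0.04 to 0.77 (Ccr7), -1.07 to 2.12 (Ccr10), -1.01 to 1.45 (Cx3cr1) and -1.12 to 0.48 (Cxcr4). Other turned signs were Cxcr4 between the TAM groups with at least 50 counts in 2 libraries (-0.03) and Ccr7 in TAM-IC over naive with limma-voom (-0.21).

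The number of genes called depended on the setting far more than the fold changes did. In the order TAM-IC over TAM-NIC, TAM-IC over naive and TAM-NIC over naive, edgeR called 0, 34 and 0 genes, DESeq2 1593, 1191 and 1278, DESeq2 on the genes of the edgeR filter 1618, 1229 and 1269, edgeR with no low-count filter 1871, 1437 and 1548, the other quasi-dispersion estimate 22, 56 and 0, and limma-voom 0 in each. RLE factors gave 22 and the 4 libraries compared 664 for TAM-IC over naive. EdgeR without 1 library called 0 to 1510, 0 to 534 and 0 to 477 genes, with 1510, 534 and 477 without TAM-NIC 1, 0, 481 and 274 without TAM-NIC 2 and 0 without any other library. DESeq2 without 1 library called 536 to 3522, 339 to 2342 and 292 to 2166. With no low-count filter edgeR called Ccr2, Ccr9, Ccrl2 and Cx3cr1 between the TAM groups, Ccr2, Ccrl2, Cx3cr1 and Cxcr2 for TAM-IC over naive and Ccr9, Ccrl2 and Cxcr2 for TAM-NIC over naive.

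The replicate block on the mouse number called 59, 187 and 0 genes, among them Ccr2 for TAM-IC over naive (3.20, adjusted p = 0.0474), and turned Ccr7 there to -0.11. The libraries of mouse 2 did not share an animal, so the number does not pair them. Both mouse 1 libraries had Xist (841 counts in TAM-NIC and 777 in TAM-IC) and 0 counts of Ddx3y, which does not settle whether they share an animal. Deviations of same-numbered TAM libraries correlated at 0.152. With 2 libraries a group this value is the same for both pairs by construction, so it cannot settle the pairing either.

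With 2 libraries a group, differences that 1 library carries, such as Ccrl2 and Ccr10 in TAM-NIC 2, cannot be told apart from group differences. Levels of Ccr10, under 1 CPM in 5 of the 6 macrophage libraries, rest on few counts.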
